A study of Mus musculus with 36 samples.

Results

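The 3 libraries of the paternally inherited *Wnt1DR* allele in the e9.5 embryo proper (head, spine and organs) were set against the 10 adult tails with the same genotype, +/DR, that were sequenced in the same run. These are 13 of the 36 libraries of the series, and they hold 69946 of its 283290 usable reads. They were chosen by tissue and genotype, from the sample labels, and by sequencing run, as the study's supplement gives it. In *Wnt1DR*, the imprinting control region (ICR) of *Rasgrf1* (the repeats and the differentially methylated domain, DMD) was inserted at *Wnt1*, a gene that is not imprinted. The allele was made in v6.5 ES cells, its neo cassette was removed in those cells, and the mice were bred into C57BL/6. Every animal in both groups was heterozygous and received the allele from its father. The sources name no other engineered allele and no treatment in either group. The tails came from generations F1 (3 animals), F2 (1), F4 (2), F5 (1) and F6 (3), and the ages of these adults are not given in the sources used here. By the library titles, the F1 tails and the F5 tail, 32415, are of the paternal lineage. The others are of the alternating lineage, in which transmission changed between mothers and fathers. The study's supplement lists 32415 as alternating. No lineage is given for the embryos. The sources also do not give the number of embryos in each embryonic library or whether the 3 tissues are of the same embryos. P-values therefore measure the spread between libraries, which on the embryonic side can be technical. With the embryos counted as a single unit, 1 against 10, the smallest exact p is 0.182. Methylation reads carry no marker of cell type, so the tissue labels were not checked.

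Imprinted genes are expressed from the copy of a single parent. The DMD of *Rasgrf1* is a paternally methylated imprint: cytosines of its CpGs are methylated (5mC) in the male germ line, and after fertilisation DNMT1 copies 5mC to the daughter strand at each round of replication. A level averaged over molecules can fall because some molecules carry no 5mC at all, or because all molecules lack it at some CpGs. Each read of an amplicon comes from 1 bisulfite-treated strand, so reads separate these possibilities. A read was therefore called low when under 33 % of its CpGs were methylated (0 to 6 of 20), high when over 66 % were (14 to 20), and middle otherwise (7 to 13). An unmethylated call in a high read is called a gap here.

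The 250-nt amplicon matches the mouse genome (NCBIM37) once in its native copy, at chr9:89774437-89774686 on the plus strand, which overlaps no annotated gene and ends 29.9 kb upstream of *Rasgrf1*. The reads come from the ectopic copy at *Wnt1*, and positions are those of the native copy. The reference lists 21 CpGs, of which the first lies inside the forward primer and was left out, and the other 20 are numbered from that primer. The following CpGs are shown, with the bases around each, because the results on gaps turn on them. Capitals mark the numbered CpG, sequences run 5′ to 3′ on the plus strand, and other CpGs in the same window are in lower case. CpG 8 was the CpG with the fewest gaps in both groups, at position 89774543 (window chr9:89774528-89774557).
CpG 8: acttcgctaccgtttCGcggccgcgctgct
CpG 12 had the most gaps in tails, at 89774573 (window chr9:89774558-89774587).
CpG 12: gctcccacatccatcCGtggctaccgctat
CpG 13, at 89774582 (window chr9:89774567-89774596), was next to CpG 12 in the size of its gap difference between the groups.
CpG 13: tccatccgtggctacCGctattgctgttgc
CpG 14, at 89774602 (window chr9:89774587-89774616), had the widest difference in level.
CpG 14: ttgctgttgctgcacCGctgccgctaagct
CpG 20, at 89774665 (window chr9:89774650-89774679), had the most gaps in the embryo.
CpG 20: gcgctacaactaccaCGactgctactgctg
CpG 8 sits in a dense stretch, with CpG 9 starting 2 bases after it. CpGs 12, 13 and 14 are farther apart: CpG 12 starts 22 bases after CpG 11, and CpG 14 starts 20 bases after CpG 13.

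The embryonic libraries gave 8183 reads (head), 8490 (spine) and 7507 (organs), and the tails gave 2530 to 11213. Each of these libraries listed 38653 reads, so a larger part was kept in the embryo than in every tail but 31819. The tails with the most reads used, 31819, 31508 (7302) and 32529 (6286), also had the highest shares of low reads (5.65, 5.25 and 12.2 %). Whether the share of low reads depends on how many reads were kept was not tested. Among the reads used, the mean conversion of cytosines outside CpGs was 99.46 % in the embryo and 99.47 % in tails (exact permutation test, p = 0.699). These reads had been kept only at 95 % conversion or more, so the test cannot compare conversion before that filter. Intervals on single libraries are 95 % Wilson intervals and cover counting error only, since the PCR of 40 cycles carried no molecular identifiers. One tail, the F6 animal 32529, stood apart from the other 9 in level, read classes and gaps, and results are given with and without it.

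Head, spine and organs had levels of 5mC of 78.04 % (interval 77.8 to 78.2), 75.4 % (interval 75.2 to 75.6) and 77.5 % (interval 77.3 to 77.7). In the 10 tails it ran from 78.8 % in 32529, through a median of 93.7 %, to 95.7 % in 30999. All 3 embryonic libraries lay below all 10 tails, although the head and tail 32529 were less than 1 percentage point apart. The means were 76.97 ± 1.42 % (SD, n = 3) and 92.02 ± 4.94 % (SD, n = 10), a difference of -15.04 percentage points with an interval of -18.7 to -8.09 from inverting the exact test. By exact permutation p was 0.00699, which is the smallest that 3 libraries against 10 can give, and 0.0175 after Benjamini-Hochberg adjustment over the 10 measures of reads compared. Without 32529 the difference was -16.5 percentage points.

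The embryo differed from tails in how many reads were low. Low reads made up 19.1 % of the head library (interval 18.3 to 20.0), 20.5 % of the spine (interval 19.7 to 21.4) and 20.3 % of the organs (interval 19.4 to 21.3). In tails the share ran from 0.0383 % (1 read of 2608, animal 30999), through a median of 2.12 %, to 12.2 % (32529). The embryonic libraries were close to each other and above every tail, while the tails differed widely among themselves: 4 of them had 10 low reads or fewer, and the F4 tails 31508 and 31819 had 5.25 and 5.65 %. The mean share was 20.0 ± 0.753 % (SD, n = 3) in the embryo and 3.21 ± 3.83 % (SD, n = 10) in tails. The difference was 16.8 percentage points, with an interval of 11.1 to 20.3 (exact permutation test, adjusted p = 0.0175). Without 32529 the highest tail was at 5.65 % and the difference was 17.8 percentage points.

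**Figure D1:**
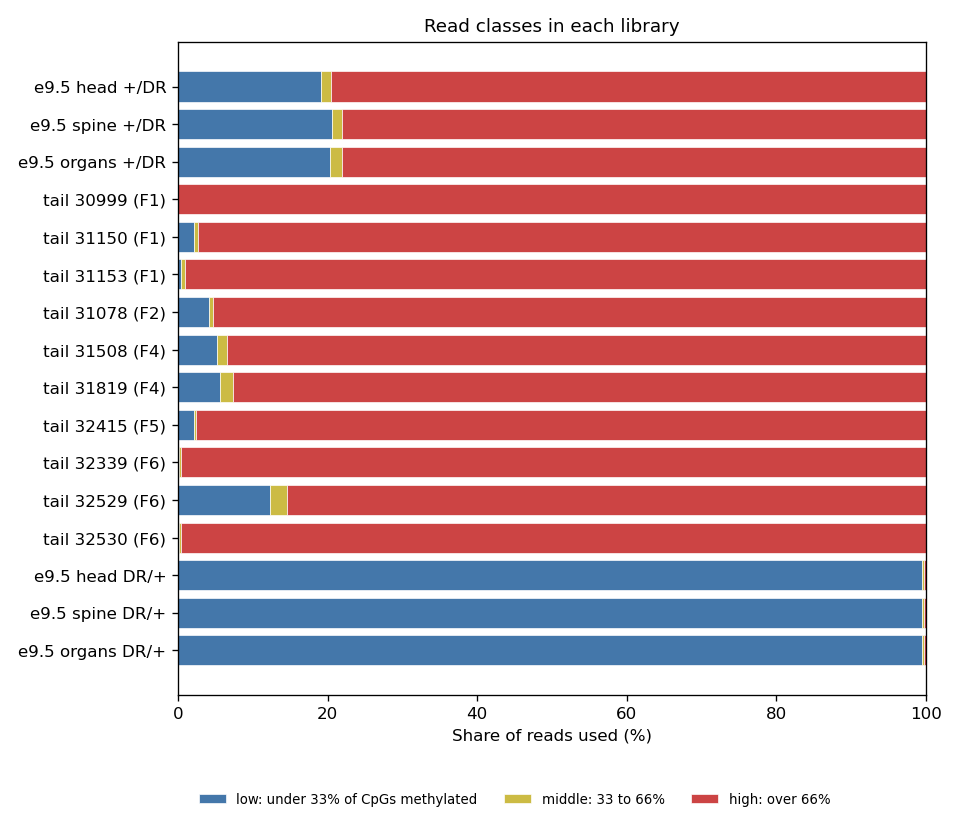
Share of reads (%) in each class for the 3 e9.5 libraries with paternal transmission (+/DR), the 10 tails of the same run ordered by generation, and the 3 e9.5 libraries with maternal transmission (DR/+) for scale. Low reads (blue) take 19.1 to 20.5 % of the paternal embryonic libraries and 0.0383 to 12.2 % of the tails, and middle reads (yellow) are few in all.

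In each embryonic library most low reads had no 5mC at any of the 20 CpGs. In tails the part of low reads without 5mC ran from 0 to 100 %, with a mean of 44.5 %, and some tails had few low reads. Reads with no 5mC were 15.3 % of the head, 15.6 % of the spine and 12.1 % of the organs. They were absent from tail 32530 (0 of 2975 reads) and reached 6.24 % in 32529, with a median of 0.694 % over the tails. No tail overlapped the embryo. The mean was 14.3 ± 1.93 % (SD, n = 3) against 1.75 ± 2.17 % (SD, n = 10), a difference of 12.6 percentage points (8.91 to 15.4; exact permutation test, adjusted p = 0.0175), and 13.1 without 32529. High reads mirrored this, at 78.6 ± 0.821 % in the embryo and 96.0 ± 4.51 % in tails, lower by 17.4 percentage points in the embryo (adjusted p = 0.0175, exact permutation test, n = 3 and 10). Middle reads were rare in both, at 1.33, 1.35 and 1.57 % of head, spine and organs and between 0 and 2.26 % of tails, and their difference of 0.629 percentage points did not pass the test (-0.428 to 1.29; exact permutation test, adjusted p = 0.219).

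**Figure D2:**
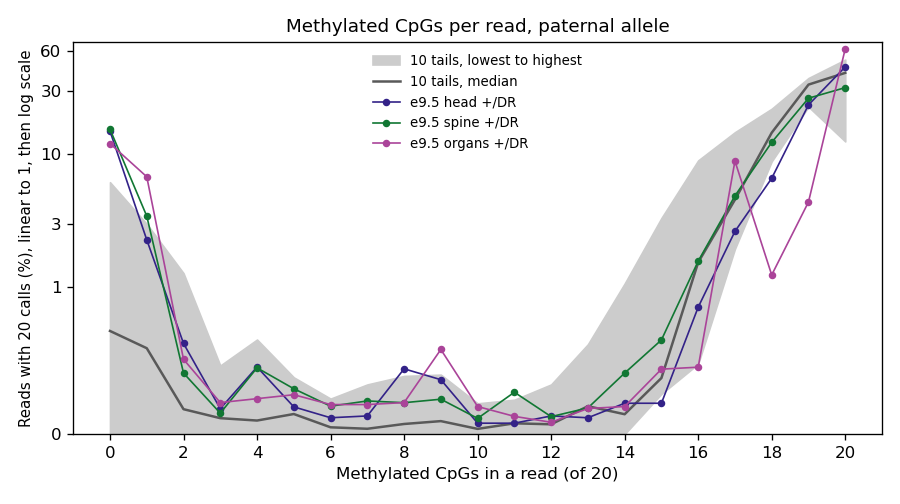
Percentage of reads by the number of methylated CpGs out of 20, among reads with a call at all 20. The axis is linear to 1 % and logarithmic above. Lines are the head, spine and organs, and the 10 tails are shown as a grey band from lowest to highest with a dark line for the median. The embryonic libraries have a second peak at 0 methylated CpGs (12.1 to 15.5 %) that lies above the band of the tails. Few reads lie between the ends. The organs have a further peak at 17 methylated CpGs.

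Within high reads, no lower level was found in the embryo. Gaps took 3.15 % of the calls in high reads of the head, 4.97 % in the spine and 2.48 % in the organs, and between 3.19 % (31819) and 9.95 % (32529) in tails, with a median of 4.29 %. Head and organs were below every tail and the spine was inside the tails' range. The mean was 3.53 ± 1.29 % (SD, n = 3) against 4.79 ± 1.91 % (SD, n = 10). The difference of -1.26 percentage points had an interval of -4.31 to 0.658 and did not pass the test (exact permutation test, p = 0.168, adjusted p = 0.219). Without 32529 it was -0.686 (p = 0.218, exact permutation test) and without the organs -0.732. Without the spine it was -1.98, with p = 0.0303 (the smallest exact p for 2 against 10) and 0.0606 after adjustment. Against the F4 tails alone it turned to 0.267. Reads with every CpG methylated were 45.6 % of the head, 31.8 % of the spine and 62.5 % of the organs and 12.5 to 51.8 % of tails, with a difference of 6.00 percentage points (-9.60 to 27.1; exact permutation test, adjusted p = 0.482). That difference was -1.94 percentage points without the organs, 13.4 without the spine, 2.87 without 32529 and -5.18 against the F4 tails alone, so it has no stable direction here.

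The level difference was split between the shares of the read classes and the levels inside them. Of the -15.04 percentage points, -15.8 came from the shares of the classes and 0.708 from the levels inside the classes, in the direction of more 5mC in the embryo. The second value rests on single libraries and on the choice of tails: it was 0.225 without the organs, 1.34 without the spine, 0.302 without tail 32529 and -0.422 against the F4 tails alone, while the first stayed between -16.8 and -15.4 whichever library was left out. Counted as unmethylated calls per 100 calls, low reads held 19.5 of them in the embryo and 3.05 in tails, middle reads 0.744 and 0.385, and high reads 2.77 and 4.55. In the 3 embryonic libraries low reads held the larger part of the unmethylated calls, and in 6 of the 10 tails gaps in high reads did. The other tails, with the larger part in low reads, were 32529 (11.6 per 100 calls in low reads and 8.51 in high reads), the F4 tails 31508 and 31819, and 31078, where the parts were 3.91 and 3.89.

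**Figure D3:**
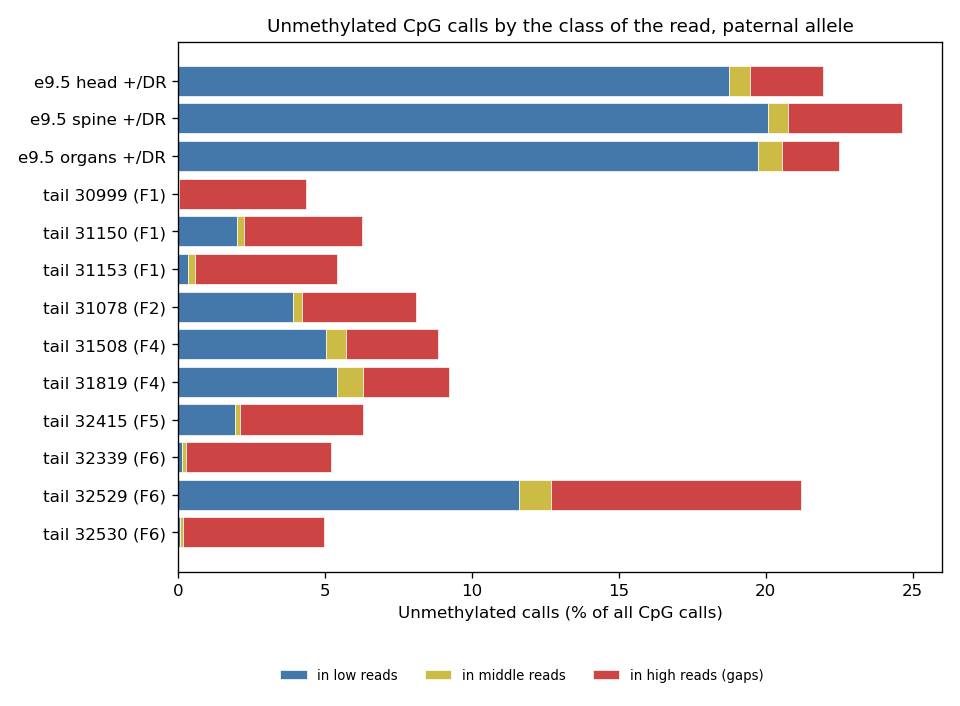
Unmethylated calls as a percentage of all CpG calls in each library, divided by the class of the read they come from. The red segment (gaps in high reads) spans 1.93 to 3.88 % in the embryo and 2.95 to 8.51 % in tails, and the blue segment (low reads) 18.7 to 20.1 % in the embryo and 0.0384 to 11.6 % in tails.

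CpG by CpG, the level was lower in the embryo at 18 of 20 CpGs (90 % of CpGs tested, exact permutation test with an adjusted p under 0.05), and at 13 of 20 (65 %) the embryonic libraries and the tails did not overlap. CpG 14 differed most. Its level was 76.2 % in the head, 67.8 % in the spine and 70.2 % in the organs, against 77.6 to 97.6 % in tails. The means were 71.4 ± 4.34 % (SD, n = 3) and 91.0 ± 6.27 % (SD, n = 10), a difference of -19.6 percentage points. CpG 12 differed least, at 75.9 ± 3.46 % against 85.7 ± 7.11 % (-9.77 percentage points). CpGs 12 and 13 did not pass the test (adjusted p = 0.0810 and 0.203, exact permutation test). At both, tail 32529 lay below the embryo, at 66.5 and 56.8 %, and without that animal all 20 CpGs passed.

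Gaps did not mark out any CpG. None of the 20 CpGs (0 %) differed in its gap rate within high reads after adjustment in either direction, by the exact permutation test, with a smallest adjusted p of 0.340. CpG 6 alone had an unadjusted p under 0.05 (p = 0.0280, exact permutation test, 1 of 20 or 5 % of CpGs), at 0.901 ± 1.05 % in the embryo and 2.97 ± 2.26 % in tails. The rate was lower in the embryo at 16 CpGs and higher at 4 (CpGs 9, 14, 15 and 20). CpG 8 was the least often missed, at 0.80 ± 0.483 % of calls in the embryo and 1.71 ± 0.783 % in tails. At CpG 12 the head had 4.37 %, the spine 8.51 % and the organs 0.273 %, against a range of 3.77 to 23.2 % and a mean of 11.2 ± 5.13 % in tails. At CpG 13 the 3 tissues had 1.94, 5.08 and 0.273 %, against 2.15 to 34.6 %, the highest being 32529. At CpG 14 the order turned: 5.21, 14.9 and 11.7 % in head, spine and organs, against a median of 4.29 % and a range of 2.20 to 16.5 % in tails. The differences at these 3 CpGs were -6.85, -5.47 and 4.80 percentage points, the widest of the 20, and the narrowest were at CpG 2 (-0.162), CpG 16 (-0.258) and CpG 7 (-0.280). CpG 20 had the highest mean in the embryo, 10.6 ± 3.44 %, with 9.31 ± 3.72 % in tails.

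**Figure D4:**
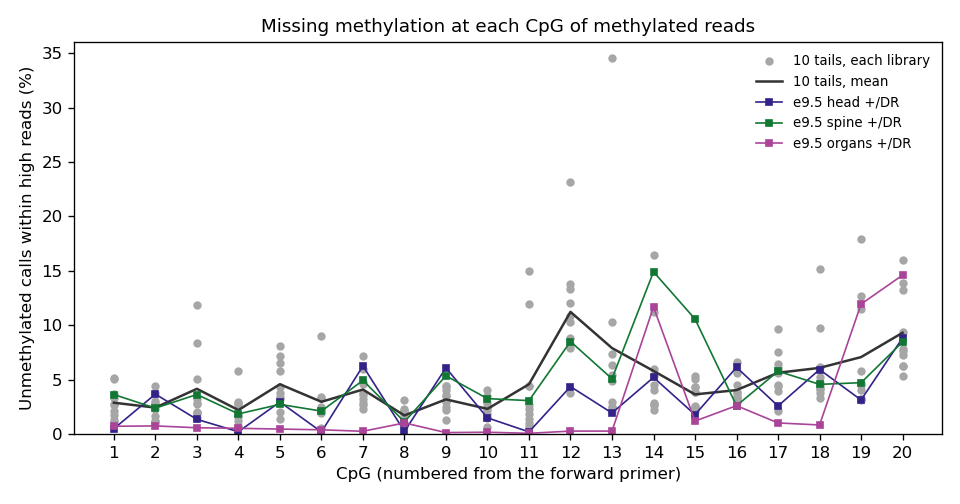
Unmethylated calls (%) within high reads at each of the 20 CpGs, numbered from the forward primer, for the head, spine and organs (coloured squares), each of the 10 tails (grey points) and the mean of the tails (dark line). The tissues differ among themselves: the organs are near 0 at most CpGs and between 11.7 and 14.6 % at CpGs 14, 19 and 20.

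The tissues of the embryo had different gap profiles from each other. Across the 20 CpGs, Pearson's r was 0.436 between head and spine, 0.490 between head and organs and 0.538 between spine and organs. These values are a description over CpGs, which share an amplicon and its base composition, and the same measure ranged from 0.134 to 0.814 over the 45 pairs of tails, with a median of 0.476. The profile of the head was most like those of the F4 tails 31508 (r = 0.902) and 31819 (r = 0.830), and that of the spine most like that of the F1 tail 31153 (r = 0.763). These are the best matches among 10 tails. The median r against the tails was 0.344 for the head, 0.343 for the spine and 0.368 for the organs, with lowest values of 0.0003, 0.232 and 0.0779. Of the 13 libraries compared, the F4 tails had files made with an identity limit of 98 % and the rest 90 %, and 98 % was applied to all. In the study's supplement, the F4 tails and the embryonic libraries had more total sequences than any other tail compared. Whether this bears on the likeness of profiles or on the gap rates was not tested.

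In the organs, a few patterns were frequent and rare elsewhere. A pattern with gaps at CpGs 14, 19 and 20 alone was on 606 reads, 8.07 % of that library, and on 21 reads in all of the other 12 libraries. The most common partial patterns of the head (336 reads, 4.11 %, a gap at CpG 20 or at CpG 7) and of the spine (484 reads, 5.70 %, a gap at CpG 14) were each found in all of the other 12. With the pattern of 606 reads left out, the gap rate of the organs was 1.03 % in place of 2.48 %. Among high reads, 80.1 % missed no CpG in the organs, 57.3 % in the head and 40.8 % in the spine, and 5.59, 29.6 and 33.9 % missed exactly 1. The low reads of the organs held such patterns too, with 227 reads methylated at CpG 8 alone (33 reads in the other 12 libraries) and 130 at CpG 10 alone (23 reads). In the organs 59.5 % of low reads had no 5mC at all, against 79.8 % in the head and 76.0 % in the spine. Tail 32529 also had a pattern of its own, with gaps at CpGs 12, 13, 18 and 19 on 167 reads (2.66 %) and on 0 reads of the other 12 libraries. The number of template molecules behind each pattern is not known.

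Gaps were more frequent after a gap than after a methylated CpG. All neighbouring pairs were pooled for this, so gap rates that differ along the amplicon can also raise the ratio. Dependence between neighbours was not tested separately. Within high reads, a gap was 2.38 times as frequent after a gap at the CpG before it as after a methylated CpG in the head, 2.83 times in the spine and 24.5 times in the organs. In tails the ratio was 1.44 to 3.12, with a median of 1.99. Head and spine fell inside the range of the tails, and the organs far outside it. With the pattern of 606 reads (gaps at CpGs 14, 19 and 20) left out, the ratio of the organs was 46.6 in place of 24.5. The difference of 7.85 in the means (exact permutation test, adjusted p = 0.0979) did not pass the test and was 0.543 without the organs.

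In low reads, 1.98 % of calls were methylated in the head, 2.24 % in the spine and 2.96 % in the organs. Low reads of tails gave values from 0 to 18.3 %, those of 30999, 32530, 32339 and 31153 resting on 1, 2, 6 and 10 reads, and the difference of -4.65 percentage points did not pass the test (-11.1 to 0.486; exact permutation test, adjusted p = 0.140). Between libraries with at least 50 low reads, which leaves 6 tails, it was -2.87 and passed (exact permutation test, adjusted p = 0.0476). The low reads of the same e9.5 tissues after maternal transmission, where low reads were 99.5 % of all reads, had 0.757 to 0.817 % of calls methylated. All 3 paternal tissues were above all 3 maternal ones (exact permutation test, p = 0.1, the smallest that 3 against 3 allow). Middle reads of the embryo had 37.2 % of the first 10 CpGs and 58.0 % of the last 10 methylated, against 48.7 and 57.1 % in 9 tails, since 30999 had no middle read. Neither difference passed (exact permutation test, p = 0.182 and 0.809). Some tails had few middle reads, such as 10 in 32339 and 10 in 32530, where 84 % of the first 10 CpGs were methylated. The switches between methylated and unmethylated CpGs along a middle read averaged 5.07 and 5.81, a difference that did not pass the test (exact permutation test, p = 0.509).

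Some reads that the software excluded were taken to come from the opposite end of the amplicon and to cover the last 9 CpGs, 12 to 20. They were picked by the length of their alignment gap, their mismatches, their number of CpHs and their conversion. That they cover 9 CpGs could be checked only in reads with a methylated CpG and was assumed in the rest. The embryonic libraries had 10401, 10476 and 11307 of them, and 8 tails had at least 1000. In these reads, no 5mC was found in 13.2 % of the head, 13.3 % of the spine and 13.7 % of the organs, and in 0.0402 to 3.53 % of the tails. The groups did not overlap here either, with means of 13.4 ± 0.259 % (SD, n = 3) and 1.22 ± 1.19 % (SD, n = 8) and the embryo higher by 12.1 percentage points (adjusted p = 0.0303 and unadjusted p = 0.0121 by exact permutation, the smallest that 3 against 8 can give). Both kinds of read come from the same libraries and the same PCR, so this is not an independent measurement. The gap rate again did not pass the test, at 4.79 % and 6.58 % (exact permutation test, p = 0.267). The level was 81.0 ± 1.24 % in the embryo and 91.4 ± 4.28 % in tails, and tail 32529, at 81.01 %, lay between the embryonic libraries. In the reads used, the share with no 5mC at the same 9 CpGs was higher than from the opposite end in the embryo, at 17.3 ± 0.540 %.

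**Figure D5:**
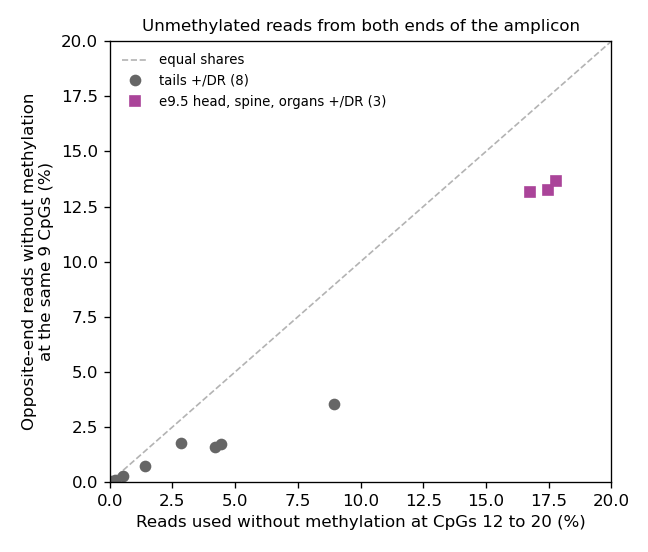
Share of reads without 5mC at CpGs 12 to 20 (%), in the reads used (horizontal axis) and in the opposite-end reads that the software excluded (vertical axis), for the 3 e9.5 libraries (squares) and the 8 tails with at least 1000 opposite-end reads (circles), with a dashed line for equal shares. The embryonic libraries, at 13.2 to 13.7 % from the opposite end, lie apart from the tails, which reach 3.53 %, and most points lie below the line.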

How the data were processed

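Bisulfite-converted DNA was amplified with *Wnt1DR*-specific primers and sequenced by the authors on a MiSeq. Per the file headers, the authors' QUMA software aligned each read to the unconverted reference; its version is not given in the sources used here. The deposited files list every read with a count of its methylated CpGs, unconverted CpHs, mismatches and alignment gaps. They also hold the percent methylation, conversion and identity that the authors' software computed, and a string of calls. Each library has a file of its own, and whether a library pools embryos is not given in the sources used here.

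Reads were used if the software did not exclude them, with at least 98 % identity and 95 % conversion. Reads whose call string is replaced by an error in the deposited file (19, 23 and 34 reads in head, spine and organs, 0 in tails) were left out. The level is the percentage of methylated calls at 20 CpGs. Each library was 1 replicate. Means were compared by two-sided exact permutation tests over all 286 splits, adjusted by Benjamini-Hochberg over 10 measures or 20 CpGs, with 0.05 as the threshold. Named CpGs had the highest or lowest gap rate in either group, the 3 widest or narrowest gap differences, or the widest or narrowest level difference; others were named after their values were seen. Libraries, measures and CpGs were chosen with earlier results of these data known. The run of each library is the study's own. Alternatives changed reads, CpGs, class limits, tails or summaries. The code was tested on simulated data. Python 3.11.15, NumPy 2.4.6, SciPy 1.17.1, pandas 2.3.3 and Matplotlib 3.10.9 were used.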

Additional observations from a re-analysis of the deposited data

Results flagged for a closer look

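Among the 10 tails, the F6 animal 32529 lay far from the others in 5 of the 10 measures, with a distance to its nearest neighbour that was large beside the range of the group (Dixon's criterion, which chance meets in about 1 in 20 groups). Its level was 78.8 %, its low reads 12.2 %, its high reads 85.5 %, its fully methylated reads 12.5 % and the gap rate within its high reads 9.95 %. In this animal both low reads and gaps were more frequent than in the other tails, while the embryonic libraries had more low reads than it (19.1 to 20.5 %) and fewer gaps (2.48 to 4.97 %). It was sequenced in the same run as the rest, with 6286 reads used.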

How the results depend on the processing

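Embryonic libraries left out in turn gave differences in level of -15.6 to -14.2 percentage points, in reads with no 5mC of 11.9 to 13.7, in low reads of 16.5 to 17.2 and in high reads of -17.9 to -17.2. None of these passed after adjustment (exact permutation test, p = 0.0303, the smallest that 2 against 10 allow), though all embryonic libraries stayed outside the tails. Over all libraries left out, tails included, these ranges were -16.5 to -14.2, 11.9 to 13.7, 16.4 to 17.8 and -18.6 to -17.0, and methylated calls in low reads ran from -5.43 to -3.40, passing without tail 30999, and the ratio of gaps after gaps from 0.543 to 11.6, passing without tail 31153 (7.97). With only the F4 tails, where p cannot fall below 0.2, the differences were -14.0, 10.6, 14.5 and -14.5, and 0 CpGs passed for level. Differences that had not passed, or had no test, changed direction there: 0.267 for the gap rate, -5.18 for fully methylated reads and -0.422 for the part of the level difference from levels within classes. High reads under classes of 0 to 3, 4 to 16 and 17 to 20 CpGs gave -15.9 (adjusted p = 0.0699), and libraries of at least 3000 reads gave -5.11 for methylated calls in low reads, which then passed. Medians gave 0.836 for the ratio of gaps after gaps.

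Some alternatives were chosen after seeing the data. Methylated calls in low reads passed in opposite-end reads (-3.07) and in libraries with at least 50 low reads (-2.87). Over CpGs 12 to 20 the level gave -14.6 (adjusted p = 0.0524), with 7 of 9 CpGs passing.

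Counting every read listed, by the mean of the percent listed per read, reversed the level difference to 16.3 percentage points (58.9 against 42.6 %; exact permutation test, p = 0.0699, n = 3 and 10). Those reads include ones aligned below the limits, opposite-end reads and the CpG of the primer, and the cause was not tested. The gap rate within high reads passed in 0 of 28 alternatives, not all of which could pass. Medians and pooled reads had no test. The exact permutation p could not fall below 0.2 with only the F4 tails, or below 0.0303 before adjustment with an embryonic library left out. No paired analysis was possible because the labels match no embryonic library to a tail. With 3 embryonic libraries, the tests did not reject differences in gaps within the intervals above. The smallest difference that could be detected was not computed, and template molecules were not counted.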
